A study of Rattus norvegicus with 6 samples.

Results

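The transcription factor genes of the pineal gland and the dorsal midline described here are Pax4, Pax6, Otx2, Neurod1, Mitf, Msx1 and Msx2. They were taken as every probe whose annotation gave one of these names as its only gene symbol, which found 10 probes of 7 genes among 35129 probes and 12167 named genes. Neurod1, Msx1 and Msx2 had a pair of probes each, and Pax4, Pax6, Otx2 and Mitf had 1 probe each. RNA of normal adult male Sprague-Dawley rats was hybridised to 6 arrays of 1 colour, of which 2 held the pineal gland. The subcommissural organ, the subfornical organ, the third ventricle ependyma and total brain followed with 1 array each. Each of these samples was pooled, the dissected ones from 2, and total brain served as the reference. The labels do not say what made up a pool or whether both pineal gland arrays are of different animals. All dissected tissue was cut out under a microscope with a laser, the ependyma away from the subcommissural and subfornical organs, and its RNA was amplified in successive rounds of in vitro transcription before labelling.

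All the genes encode proteins that bind DNA and set cell identity. Otx2 and Pax6 carry homeodomains and, in mice, are needed for the pineal gland and the eye to form; Pax6 is also needed for the subcommissural organ. Pax4 is the close relative of Pax6 best known for the insulin-producing cells of the pancreas. Neurod1 is a basic helix-loop-helix factor of developing neurons that, in mice, also keeps photoreceptors alive. Mitf is a basic helix-loop-helix leucine zipper factor known as the regulator of pigment cells and of the retinal pigment epithelium. Msx1 and Msx2 are homeodomain repressors of the roof plate, the strip of cells along the dorsal midline of the neural tube, and in mice loss of Msx1 disrupts the subcommissural organ. The pineal gland and the subcommissural organ both arise from this dorsal midline, whereas the subfornical organ lies further forward in the roof of the third ventricle.

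Promoter sequence was found in RefSeq for 6 of the 7 genes, all but Otx2, as a window of 300 bases on the GRCr8 build reaching from 250 bases before the annotated gene start to 50 bases after it. The windows of Pax4, Neurod1 and Mitf are shown because these were the genes with a window whose level on both pineal gland arrays lay above that on every other array. They are written 5′ to 3′ in lower case, and capitals mark the E-box pattern CANNTG, the 6-base form that basic helix-loop-helix factors such as Neurod1 and Mitf bind.
Pax4 (GRCr8 chr4:58028809-58029108, minus strand): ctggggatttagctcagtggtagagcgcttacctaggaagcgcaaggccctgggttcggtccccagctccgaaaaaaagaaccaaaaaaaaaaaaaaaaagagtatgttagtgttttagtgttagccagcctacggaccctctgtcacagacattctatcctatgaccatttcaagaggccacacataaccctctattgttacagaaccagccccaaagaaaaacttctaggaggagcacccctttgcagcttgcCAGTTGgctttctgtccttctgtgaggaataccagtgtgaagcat
Neurod1 (GRCr8 chr3:84770405-84770704, minus strand): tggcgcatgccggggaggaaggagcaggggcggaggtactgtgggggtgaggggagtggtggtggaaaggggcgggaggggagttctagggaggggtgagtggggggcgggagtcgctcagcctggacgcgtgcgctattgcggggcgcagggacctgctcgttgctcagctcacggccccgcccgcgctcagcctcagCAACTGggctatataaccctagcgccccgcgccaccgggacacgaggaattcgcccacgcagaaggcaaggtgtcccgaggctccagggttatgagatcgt
Mitf (GRCr8 chr4:131965490-131965789, plus strand): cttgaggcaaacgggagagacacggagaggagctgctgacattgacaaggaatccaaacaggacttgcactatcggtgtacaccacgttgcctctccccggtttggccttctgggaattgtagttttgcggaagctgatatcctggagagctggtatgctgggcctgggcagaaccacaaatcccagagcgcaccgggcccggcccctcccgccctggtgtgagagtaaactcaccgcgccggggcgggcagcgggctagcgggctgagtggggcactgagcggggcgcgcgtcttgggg
The pattern occurred in 3 of the 6 windows, those of Pax4 at base 6, Neurod1 at base -51 and Msx2 at base -153, counting from the gene start. It occurred in 72.1% of all 33469 windows of this length, so its presence does not set these genes apart. The narrower E-boxes CACGTG, in 6.42% of all windows, and CATGTG, in 14.0% of them, had no match in the 6 windows on either strand. The homeodomain pattern TAATCC, known from Otx proteins, had no match and is in 7.17% of all windows. The pattern TAATTG, known from Msx proteins, had none and is in 8.20% of them, and the general homeodomain core TAATTA had none and is in 5.36%. The CCAAT pattern, in 37.5% of all windows, occurred in those of Msx1 and Msx2. On Msx1 it began at bases -94 and -57, and on Msx2 at bases -198, -154 and -151, where the second and the third of these overlap the E-box. The base composition also differed, with 46.7% G and C in the Pax4 window, 68.0% in that of Neurod1, 62.7% in that of Mitf, 43.0% in that of Pax6, 73.0% in that of Msx1 and 65.3% in that of Msx2, against a median of 51.7% over all windows.

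Levels are the deposited intensities, in arbitrary units on a linear scale, and a level of one probe cannot be set against that of another. No detection call was used, so 1.05, the median over all probes and arrays, served as the lower limit of a measured level. A gene was taken as measured where the higher side of a comparison reached that limit, and a fold whose lower side lay under it is written as at least so many fold. The array medians lay between 1.04 and 1.07, and the 75th percentile was highest in total brain, at 7.93, with a range of 4.90 to 6.31 elsewhere. The pineal gland pair was the only measure of spread, and the pineal gland was tested against each other tissue with limma, a linear model over all 6 arrays, with two-sided p-values adjusted over all measured genes and a threshold of 0.05. Over 8555 measured genes its log2 differences had an SD of 0.77, and 76.6% of these genes were higher on the first array, with a median difference of 0.43. Marker sums were read beside the labels as a description only, because the lists were chosen with earlier results of these data known. The pinealocyte and subcommissural sums were highest in their own tissue, while the cilia sum hardly separated the ependyma from the subcommissural organ. The 6 pinealocyte markers summed to 1813 and 1559 on the pineal gland arrays, 9.05 in the subcommissural organ, 7.08 in the subfornical organ, 5.08 in the ependyma and 8.18 in total brain. The 4 subcommissural markers on the array summed to 267 in that organ and to between 4.87 and 16.0 on the other arrays. They were Creb3l4, Creld2, Hsd11b2 and Cuzd1, while Sspo, also listed, had no named probe with values on all arrays. The 7 markers of motile cilia on the array summed to 1345 in the ependyma and 1193 in the subcommissural organ, 295 in the subfornical organ, 15.6 and 15.2 in the pineal gland and 52.5 in total brain, while Foxj1, the regulator of motile cilia, was under the lower limit on every array. The subfornical organ had no marker list of its own.

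Of the 7 genes, 3 had their highest level in the pineal gland by a clear gap to every other tissue (Pax4, Neurod1 and Mitf), 1 was shared by the pineal gland and the subcommissural organ (Otx2), 1 was highest in the subcommissural organ with a lower level in the pineal gland (Pax6), 1 was highest in the subcommissural organ and the ependyma and lowest in the pineal gland (Msx1), and 1 was low everywhere (Msx2). Of the brightest probes, those of Otx2, Mitf and Msx1 reached the lower limit on all 6 arrays, that of Pax4 on 5, that of Pax6 on 4, that of Msx2 on 3 and that of Neurod1 on 2. In bulk tissue, fewer cells that make a transcript and less of it in each cell cannot be told apart.

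**Figure D1:**
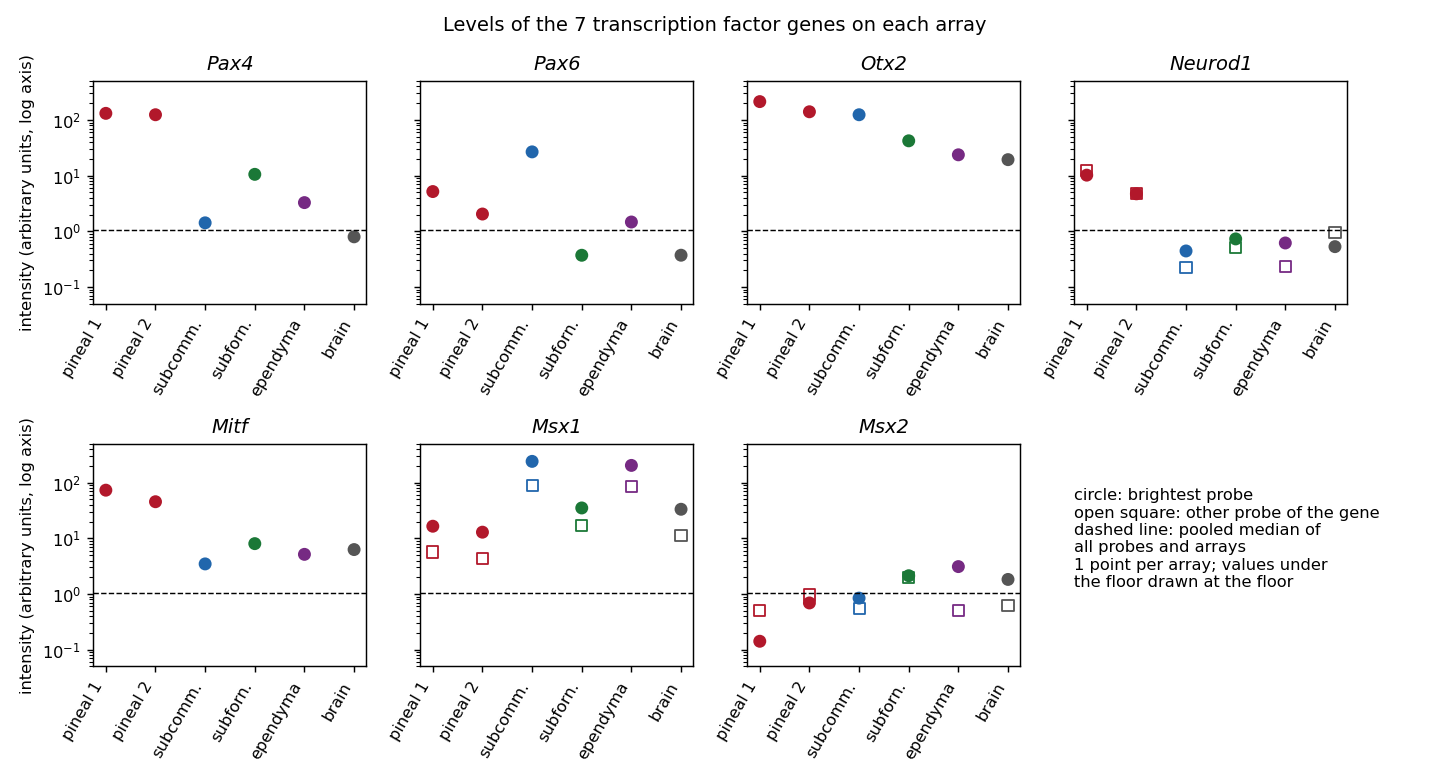
Intensity of each transcription factor gene (vertical log axis, arbitrary units) on each array (horizontal axis), with 1 point per array, circles for the brightest probe and open squares for the other probe of Neurod1, Msx1 and Msx2. Pax4, Neurod1 and Mitf stand apart on both pineal gland arrays, Pax6 peaks in the subcommissural organ at 26.7, and Msx1 is high in the subcommissural organ and the ependyma.

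By the brightest probes, Pax4 had the largest log2 difference of the 7 genes between the pineal gland and each of the other 4 tissues, while the other probe of Neurod1 gave a larger one against the subfornical organ. It was at 131 and 124 on the pineal gland arrays, 1.42 in the subcommissural organ, 10.6 in the subfornical organ, 3.28 in the ependyma and 0.797 in total brain. Both pineal gland values stood far above all others and nearly matched each other, with a mean of 128 ± 5.16 (SD, n = 2). The pineal gland was at least 122-fold higher than total brain, the only tissue in which Pax4 was under the lower limit. It was 89.9-fold higher than the subcommissural organ, 38.9-fold higher than the ependyma and 12.1-fold higher than the subfornical organ. All 4 differences passed limma's test, with log2 differences of 7.32 against total brain (adjusted p = 1.28e-21), 6.49 against the subcommissural organ (1.55e-17), 5.28 against the ependyma (1.09e-11) and 3.60 against the subfornical organ (1.40e-05). Below the pineal gland the order of levels was subfornical organ, ependyma, subcommissural organ and total brain, in steps of 3.22-fold, 2.31-fold and 1.78-fold between single arrays, which have no replicate check. The subfornical organ was thus the second tissue for Pax4, at least 10.05-fold above total brain, and only 1 of the 6 pinealocyte markers reached the lower limit there. That marker was Aanat, the penultimate enzyme of melatonin synthesis, at 10.9 and 10.7 in the pineal gland, 1.11 in the subcommissural organ, 4.44 in the subfornical organ, 2.20 in the ependyma and 2.50 in total brain.

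Mitf was at 73.3 and 45.5 in the pineal gland, 3.48 in the subcommissural organ, 8.04 in the subfornical organ, 5.16 in the ependyma and 6.29 in total brain. The lower pineal gland array was well above all 4 other tissues, which lay close together. The pineal gland mean was 59.4 ± 19.7 (SD, n = 2). By mean log2 the pineal gland was 16.6-fold above the subcommissural organ, 11.2-fold above the ependyma, 9.18-fold above total brain and 7.18-fold above the subfornical organ. The log2 differences of 4.05, 3.48, 3.20 and 2.84 all passed limma's test, with adjusted p-values of 3.33e-07, 2.02e-05, 0.000105 and 0.000937 in that order. Without the filter on low values the call against the subfornical organ was lost, with an adjusted p of 0.0634 in a range of 0.000105 to 0.0634 over the alternatives tested. Among the other tissues the steps were 1.28-fold from the subfornical organ to total brain, 1.22-fold to the ependyma and 1.48-fold to the subcommissural organ, and the replicate arrays of the pineal gland themselves differed by 1.61-fold. Markers of melanocytes, the cells in which Mitf is best known, did not follow it. Of the 4 on the array only Pmel, a fibril protein of the melanosome, reached the lower limit on any array, and their sum was 7.48 and 5.77 in the pineal gland, 11.6 in the subcommissural organ, 15.3 in the subfornical organ, 12.0 in the ependyma and 10.7 in total brain.

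Neurod1 was measured only in the pineal gland. Its brighter probe was at 10.2 and 4.72 in the pineal gland, 0.444 in the subcommissural organ, 0.731 in the subfornical organ, 0.618 in the ependyma and 0.531 in total brain. Its other probe was at 12.2 and 4.81 in the pineal gland, 0.221 in the subcommissural organ, 0.512 in the subfornical organ, 0.237 in the ependyma and 0.966 in total brain. On both probes every tissue but the pineal gland was under the lower limit, so the order among them cannot be read. The pineal gland averaged 7.47 ± 3.88 on the brighter probe (SD, n = 2), and its arrays differed by 2.16-fold on it and by 2.53-fold on the other. The fold was at least 6.61 against each of the 4 tissues. Limma's log2 differences were 3.97 against the subcommissural organ (adjusted p = 6.35e-07), 3.71 against total brain (4.57e-06), 3.49 against the ependyma (1.95e-05) and 3.25 against the subfornical organ (0.000112). The last of these calls was lost without the filter on low values, where the adjusted p was 0.0574, in a range of 4.81e-06 to 0.0574 over the alternatives tested. The other probe, in a fit of all probes, gave 5.11, 2.98, 5.01 and 3.90 for the same 4 comparisons, all past the threshold. Neurod1 is also known from cerebellar granule cells. The 5 genes listed for them summed to 12.5 and 5.09 in the pineal gland, 24.6 in the ependyma and 20.5 in total brain. The sum was 9.90 in the subcommissural organ and 4.38 in the subfornical organ. These sums are a poor measure of granule cells, because the list held Calb1, which does not mark them. Calb1 was at 7.91 and 2.63 in the pineal gland, 16.9 in the ependyma and 9.66 in total brain. It was at 2.12 in the subcommissural organ and 3.30 in the subfornical organ. Gabra6, a receptor subunit that defines granule cells, was under the lower limit on every array. Cbln1 was at 1.37 and 1.39 in the pineal gland, 4.37 in the ependyma and 4.61 in total brain. Barhl1 was at 0.658 and 0.103 in the pineal gland, 2.35 in the ependyma and 4.38 in total brain. In the subcommissural organ they were at 3.45 and 3.32, and in the subfornical organ both were under the lower limit. Fat2 reached that limit on the first pineal gland array alone, at 2.04.

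Otx2 was bright on every array, at 213.6 and 140.3 in the pineal gland, 124 in the subcommissural organ, 42.2 in the subfornical organ, 23.7 in the ependyma and 19.4 in total brain. The subcommissural organ lay just under the lower pineal gland array, and the other 3 tissues lay well below both. The pineal gland mean was 177 ± 51.8 (SD, n = 2). By mean log2 the pineal gland was 8.93-fold above total brain, 7.31-fold above the ependyma and 4.10-fold above the subfornical organ. These log2 differences of 3.16, 2.87 and 2.04 passed limma's test, with adjusted p-values of 0.000131, 0.000654 and 0.0280 in that order. Without the filter on low values the calls against the ependyma and the subfornical organ were lost. The adjusted p against the ependyma was then 0.0570, in a range of 8.56e-05 to 0.0570 over the alternatives tested, and that against the subfornical organ was 0.140, in a range of 0.00912 to 0.140. Quantile normalization also ended the call against the subfornical organ, with an adjusted p of 0.0567. Against the subcommissural organ the log2 difference was 0.48, with a 95% interval of -0.92 to 1.88 and an adjusted p of 0.740 in limma's test. The subcommissural organ was 6.40-fold above total brain and 5.24-fold above the ependyma, without a replicate check. Otx2 is also a gene of the choroid plexus epithelium, the tissue that makes cerebrospinal fluid. Its 10 markers summed to 231 and 231 in the pineal gland, 413 in the subcommissural organ, 63.4 in the subfornical organ, 313 in the ependyma and 161 in total brain. Of these, Kl, Clic6 and Aqp1 were under the lower limit on all arrays, Slc4a5 reached it on the first pineal gland array alone and Prlr in total brain alone. Kcne2, a potassium channel subunit, was at 58.5 and 34.8 in the pineal gland, 29.1 in the subcommissural organ, 0.497 in the subfornical organ, 0.495 in the ependyma and 4.24 in total brain, so that, like Otx2, it was high in the pineal gland and the subcommissural organ. F5, a coagulation factor, was at 50.6 and 22.2 in the pineal gland and under the lower limit on every other array. Calml4, a calmodulin relative, was at 12.5 and 11.9 in the pineal gland, 319 in the subcommissural organ, 44.8 in the subfornical organ, 225 in the ependyma and 22.4 in total brain, and made up most of the sum in the subcommissural organ and the ependyma. Folr1, a folate receptor, was at 3.09 and 8.81 in the pineal gland, 60.7 in the subcommissural organ, 10.98 in the subfornical organ, 79.7 in the ependyma and 13.1 in total brain. Ttr, the thyroid hormone carrier made in bulk by that epithelium, was at 104 and 152 in the pineal gland, 1.61 in the subcommissural organ, 4.17 in the subfornical organ, 4.97 in the ependyma and 116 in total brain. The part of such cells in the Otx2 levels was not tested.

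Pax6 was at 5.18 and 2.05 in the pineal gland, 26.7 in the subcommissural organ, 0.372 in the subfornical organ, 1.47 in the ependyma and 0.373 in total brain. The subcommissural organ had the highest value, both pineal gland arrays followed with a gap of 2.53-fold between them, and the subfornical organ and total brain were under the lower limit. The pineal gland averaged 3.61 ± 2.22 (SD, n = 2). It was 8.21-fold lower than the subcommissural organ, with a log2 difference of -3.04 in limma's test (95% interval -4.44 to -1.64, adjusted p = 0.000245), a fold that was 13.1 with the second pineal gland array alone and 5.16 with the first alone. It was at least 3.10-fold higher than total brain and than the subfornical organ, with log2 differences of 3.13 in both comparisons (adjusted p = 0.000157 and 0.000216 in limma's test). Against total brain this call was lost after quantile normalization, where limma's adjusted p was 0.0502, and without the filter on low values, where it was 0.0599, in a range of 7.24e-05 to 0.0599 over the alternatives tested. Without the filter the calls against the subcommissural organ and the subfornical organ were lost too. The adjusted p against the subcommissural organ was then 0.0764, in a range of 2.58e-05 to 0.0764, and that against the subfornical organ was 0.0729, in a range of 0.000116 to 0.0729. Against the ependyma the log2 difference of 1.15 had a 95% interval of -0.26 to 2.55 and an adjusted p of 0.317, so a difference could not be shown. Between single arrays, the subcommissural organ was 18.2-fold above the ependyma and at least 25.4-fold above total brain.

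**Figure D2:**
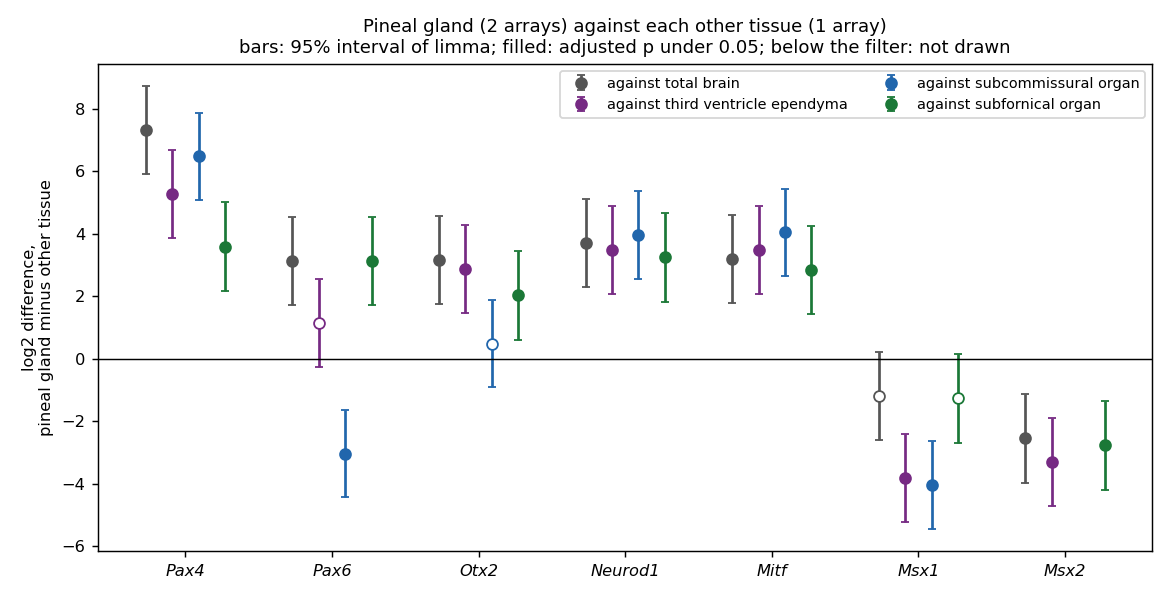
Log2 difference of each gene between the pineal gland and each of the other 4 tissues, with the 95% interval of limma's fit, in which every gene has the same standard error within a comparison (0.71 to 0.73). Filled points passed the test and open ones did not, and Msx2 against the subcommissural organ was not measured. Pax4 has the largest difference against total brain, at 7.32, and the differences of Msx1 lie below 0 in all 4 comparisons.

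Msx1 ran opposite to the pineal genes. Its brighter probe was at 16.5 and 12.9 in the pineal gland, 241 in the subcommissural organ, 35.1 in the subfornical organ, 204 in the ependyma and 33.3 in total brain. Its other probe was at 5.70 and 4.36 in the pineal gland, 88.8 in the subcommissural organ, 16.8 in the subfornical organ, 86.5 in the ependyma and 11.4 in total brain. On both probes the subcommissural organ and the ependyma were high and close to each other, the subfornical organ and total brain were lower, and the pineal gland was lowest. The pineal gland averaged 14.7 ± 2.55 on the brighter probe (SD, n = 2). By mean log2 it was 16.5-fold lower than the subcommissural organ and 14.0-fold lower than the ependyma. These log2 differences of -4.05 and -3.81 passed limma's test, with adjusted p-values of 3.53e-07 and 2.47e-06. Against the subfornical organ and total brain the log2 differences were -1.27 (95% interval -2.69 to 0.15, adjusted p = 0.237) and -1.19 (-2.61 to 0.23, 0.254), which missed the threshold. The subcommissural organ was only 1.18-fold above the ependyma, and these were 7.25-fold and 6.13-fold above total brain between single arrays. The subfornical organ was 5.81-fold below the ependyma and 1.06-fold above total brain. The probes gave the same profile, with a root mean square difference of 0.19 between their log2 values after each was centred on its own mean.

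The summed level of the motile cilia markers moved with Msx1, as given above, in that both were high in the subcommissural organ and the ependyma and low in the pineal gland. In the subfornical organ the cilia sum was 295 against 52.5 in total brain, whereas Msx1 was at 35.1 against 33.3. Whether the number of ciliated cells in each dissection accounted for the Msx1 levels was not tested.

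Msx2 was near or under the lower limit on most arrays, and its probes disagreed. Its brighter probe was at 0.0333 and 0.692 in the pineal gland, 0.845 in the subcommissural organ, 2.13 in the subfornical organ, 3.11 in the ependyma and 1.83 in total brain. Its other probe was at 0.501 and 0.963 in the pineal gland, 0.551 in the subcommissural organ, 1.98 in the subfornical organ, 0.515 in the ependyma and 0.624 in total brain, so that it reached the limit in the subfornical organ only. The root mean square difference between the centred profiles was 1.41, against 0.76 for the probes of Neurod1. On the brighter probe the pineal gland was at least 2.96-fold lower than the ependyma, at least 2.03-fold lower than the subfornical organ and at least 1.74-fold lower than total brain. Limma's log2 differences of -3.31, -2.77 and -2.55 passed its test (adjusted p = 5.62e-05, 0.00136 and 0.00302), but their size rested on 1 pineal gland array whose value was raised to 0.142, the 5th percentile of all values, before log2 was taken. Without that first array the log2 differences were -2.17, -1.62 and -1.40, and without the second they were -4.45, -3.91 and -3.69. Quantile normalization ended all 3 calls, and over the alternatives tested they held in 3 of 7 against the ependyma, 4 of 8 against the subfornical organ and 2 of 7 against total brain. The other probe was not measured against total brain, the ependyma or the subcommissural organ, and against the subfornical organ its log2 difference of -1.51 had an adjusted p of 0.152 in limma's fit of all probes.

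**Figure D3:**
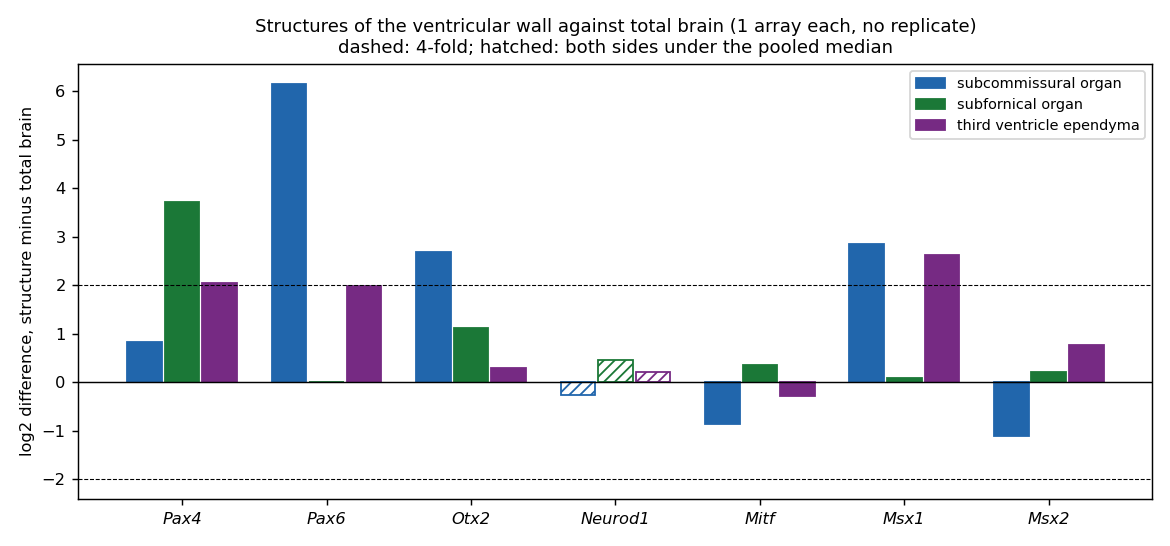
Log2 difference of each gene (bars, vertical axis) between the single array of the subcommissural organ, the subfornical organ or the ependyma and that of total brain, with dashed lines at 4-fold. Hatching marks Neurod1 as under the lower limit on both sides, and the bar of Pax6 in the subfornical organ is at about 0 with both sides under that limit. Pax6, Msx1 and Otx2 are more than 4-fold above total brain in the subcommissural organ, Pax4 is in the subfornical organ, and Msx1 and Pax4 are in the ependyma.

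Counted together, 5 of the 7 genes were higher and 1 was lower in the pineal gland than in total brain by limma's test, where 7.67% of 9072 measured genes were higher and 16.1% lower (23.8% called in all). The median log2 difference of the members was 3.16, beside -0.45 over all measured genes. Against the ependyma 4 were higher and 2 lower, with 7.25% and 12.9% of 8963 genes called in these directions (20.2% in all) and medians of 2.87 for the members and -0.11 for all genes. Against the subfornical organ 5 were higher and 1 lower, with 7.02% and 13.7% of 9003 genes called (20.7% in all) and medians of 2.84 and -0.25. Against the subcommissural organ, where 6 members were measured, 3 were higher and 2 lower, with 9.29% and 11.5% of 8840 genes called (20.8% in all) and medians of 2.22 and -0.19. The standard error was 0.71 to 0.73 on the log2 scale, the same for every gene of a comparison. The fit had 1 residual degree of freedom, from the pineal gland pair, but limma's prior degrees of freedom were infinite. The error was thus a common value over all measured genes, whatever the spread of a gene's own pair. Pax4, with pineal gland arrays 1.06-fold apart, got the same error as Pax6, with arrays 2.53-fold apart. The balance of calls depended on the scaling. The share of calls that was higher in the pineal gland was 32.2% against total brain and 33.9% against the subfornical organ as reported, 47.5% and 44.5% after quantile normalization, and 55.0% and 46.5% with 75th percentile scaling. Measured from the all-gene median, the log2 differences from total brain were 3.61 for Otx2, -0.74 for Msx1 and -2.10 for Msx2. A call was in effect a log2 difference of at least 1.82 against total brain and 1.85 against the ependyma. That size was 1.83 against the subcommissural organ and 1.86 against the subfornical organ. The p-values here rest only on the differences within the pineal gland pair, taken over all measured genes, and these may be technical. The 4 comparisons share the pineal gland arrays, so they are not independent of each other. Total brain is not among the tissues described as cut out with a laser, so against it tissue and preparation cannot be told apart. The members were chosen with earlier results of these data known, so their counts are a description.

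The comparisons between single arrays had no test, and a difference of at least 4-fold was counted. In the subcommissural organ against total brain 3 of 6 measured members were higher by that much (Pax6, Otx2 and Msx1), where 8.62% of 9114 genes were higher and 14.9% lower (23.5% in either direction). In the subfornical organ against total brain 1 of 5 was higher (Pax4), where 7.19% of 9167 genes were higher (16.8% in either direction). In the ependyma against total brain 2 of 6 were higher (Msx1 and Pax4), where 7.38% of 9104 genes were higher (16.7% in either direction). Pax4 there had a fold of at least 3.12 once its level in total brain was set to the lower limit. In the subcommissural organ against the ependyma 2 of 6 were higher (Pax6 and Otx2), where 4.91% of 8887 genes were higher (12.8% in either direction). In the subfornical organ against the ependyma 1 of 6 was lower (Msx1), where 6.61% of 9050 genes were lower (13.4% in either direction). The share of 4-fold differences that was higher against total brain was 36.7% in the subcommissural organ, 42.7% in the subfornical organ and 44.2% in the ependyma, and with 75th percentile scaling it was 50.9%, 57.4% and 66.9%. Mitf stayed within 4-fold in all 5 of these comparisons, with log2 differences between -0.86 and 0.64, and its sign in the ependyma against total brain turned with the scaling.

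The profiles of the members over the arrays were compared by the root mean square difference of log2 values after each gene was centred on its own mean over the 6 arrays. The closest pair was Neurod1 and Mitf, at 0.26, and the farthest was Pax4 and Msx1, at 4.25. Neurod1 reached the lower limit on the 2 pineal gland arrays only, so its distances rest in part on unmeasured values. By the same measure its probes lay 0.76 apart, farther than its brighter probe lay from Mitf. Otx2 lay 1.20 from Neurod1 and 1.26 from Mitf, Pax4 lay 1.41 from Neurod1 and 1.48 from Mitf, Pax6 was nearest to Otx2 at 1.52, and Msx1 lay 1.56 from Msx2. The same measure was taken against 9968 named genes that reached the lower limit on at least 1 array. For Neurod1 the nearest was Mitf itself, followed by Impg2, which encodes a proteoglycan of the matrix around photoreceptors, at 0.28 and Tnmd, which encodes tenomodulin, at 0.30. Impg2 was at 5.11 and 2.48 in the pineal gland, 0.324 in the subcommissural organ, 0.629 in the subfornical organ, 0.449 in the ependyma and 0.305 in total brain. Like Neurod1, it was under the lower limit outside the pineal gland. For Mitf the nearest after Neurod1 were Impg2, at 0.34, and Anpep, which encodes an aminopeptidase, at 0.35. Anpep was at 50.1 and 28.8 in the pineal gland, 1.24 in the subcommissural organ, 5.83 in the subfornical organ, 3.46 in the ependyma and 4.29 in total brain.

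For Msx1 the nearest genes were Ccdc65, which encodes a part of the motile cilium, at 0.21, Mpo at 0.22 and Hspa2 at 0.23. Ccdc65 was at 8.92 and 9.05 in the pineal gland, 129.9 in the subcommissural organ, 26.7 in the subfornical organ, 104 in the ependyma and 19.4 in total brain. For Otx2 they were Dlgap5 at 0.30, 2810025M15Rikl at 0.33 and Elmo3 at 0.36. For Pax6 they were Zpbp2 at 0.58, Spsb4 at 0.71 and St6galnac2 at 0.73, and Spsb4 was at 7.36 and 4.998 in the pineal gland, 53.6 in the subcommissural organ, 1.52 in the subfornical organ, 6.45 in the ependyma and 2.16 in total brain. The nearest genes of Pax4 were Igfbp3 at 0.88, Gngt2, which encodes a transducin subunit of cones, at 0.88 and Esm1 at 0.89. The measure grows with the range of a profile, which was widest for Pax4. These larger distances therefore do not show a poorer match. Gngt2 was at 366 and 444 in the pineal gland, 2.18 in the subcommissural organ, 9.20 in the subfornical organ, 2.01 in the ependyma and 1.42 in total brain. For Msx2, whose profile lies near the floor, they were Galr2 at 0.32, Grb14 at 0.44 and Ceacam9 at 0.50. These distances rest on 6 arrays of 5 tissues and are a description.

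Further pineal and photoreceptor factors were mostly under the lower limit, which need not mean an absent transcript. Snap25, listed as a neuron marker, was at 0.570 in total brain, where 7 of the 8 neuron markers on the array reached the limit. How well each probe reads its transcript was not tested. Of the 27 factors listed, 13 had a named probe and 5 were measured in the pineal gland against total brain. In limma's test 2 of these rose, Neurod4 and Prdm1. Among all measured genes 7.67% rose. The median log2 difference of the 5 was 1.09, beside -0.45 over all measured genes. Neurod4, a relative of Neurod1 active in developing retina, was at 29.9 and 11.2 in the pineal gland, 0.799 in the subcommissural organ, 0.519 in the subfornical organ, 0.472 in the ependyma and 0.548 in total brain. Both pineal gland arrays stood above all others, and the pineal gland was at least 17.4-fold higher than total brain (log2 difference 5.06, adjusted p = 1.09e-10). Prdm1, which in mice steers retinal precursors to the photoreceptor fate, was at 4.09 and 2.00 in the pineal gland and 0.445 in total brain, at least 2.72-fold higher in the pineal gland (log2 difference 2.68, adjusted p = 0.00159). Crx, the relative of Otx2 that acts downstream of it in mice, was at 2.34 and 1.75 in the pineal gland and 0.952 in total brain, with a log2 difference of 1.09 and an adjusted p of 0.312 in limma's test. Photoreceptor and melatonin genes listed as targets of the Otx and Crx factors behaved differently. All 13 on the array were measured, 11 rose in limma's test, beside 7.67% of all measured genes, and the median log2 difference was 7.85, beside -0.45. The list includes all the pinealocyte markers, so it is not independent of them. Its largest log2 differences were those of Prph2, a protein of photoreceptor discs, at least 297-fold above total brain, Pdc, which encodes phosducin, at least 301-fold above it, and Asmt, the last enzyme of melatonin synthesis, at least 72.6-fold above it.

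The pigment genes known as Mitf targets in melanocytes were less uniform. Of 12 listed, 8 had a named probe, 5 were measured, and 2 rose in limma's test in the pineal gland against total brain, where 7.67% of all measured genes rose. The median log2 difference was 0.47, beside -0.45 over all measured genes. Trpm1, an ion channel first found in melanocytes and also used by retinal bipolar cells, was at 3.19 and 4.10 in the pineal gland, 0.462 in the subcommissural organ, 0.361 in the subfornical organ, 1.81 in the ependyma and 0.333 in total brain. It was at least 3.44-fold higher in the pineal gland than in total brain (log2 difference 3.44, adjusted p = 2.56e-05). Rab27a, which moves melanosomes and other secretory organelles, was at 5.03 and 2.93 in the pineal gland, 0.0823 in the subcommissural organ, 1.32 in the subfornical organ, 0.411 in the ependyma and 1.03 in total brain (log2 difference 1.89, adjusted p = 0.0397). Pmel was lower on both pineal gland arrays than elsewhere, at 6.58 and 4.59 in the pineal gland and 9.85 in total brain, with a log2 difference of -0.84 and an adjusted p of 0.463. The relatives of Mitf that can pair with it, Tfeb, Tfe3 and Tfec, missed the threshold against total brain. Tfeb was at 0.405 and 0.507 in the pineal gland and 1.54 in total brain (log2 difference -1.76, adjusted p = 0.0598). Tfe3 was nearly even, at 39.9 and 29.9 in the pineal gland, 32.9 in the subcommissural organ, 36.6 in the subfornical organ, 41.6 in the ependyma and 36.7 in total brain (log2 difference -0.09, adjusted p = 0.956).

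The partners and repressors of basic helix-loop-helix factors all had a probe, and 8 of 12 were measured in the pineal gland against total brain. In limma's test 2 fell and the other 6 missed the threshold, with a median log2 difference of -0.82 beside -0.45 over all measured genes. Since 16.1% of all measured genes fell, 2 of 8 is close to the background. Hey2, a repressor acting downstream of Notch, was at 0.578 and 0.480 in the pineal gland and 2.59 in total brain (log2 difference -2.30, adjusted p = 0.00888). Tcf4, an E protein with which factors such as Neurod1 pair, was at 12.3 and 8.42 in the pineal gland and 43.7 in total brain (log2 difference -2.10, adjusted p = 0.0189). Tcf12, another E protein, stood out in the subcommissural organ instead. It was at 11.1 and 8.48 in the pineal gland, 92.7 in the subcommissural organ, 20.0 in the subfornical organ, 18.02 in the ependyma and 27.7 in total brain, and the pineal gland was 9.57-fold lower than the subcommissural organ (log2 difference -3.26, adjusted p = 6.88e-05). Of 10 other genes listed with the Pax pair, 3 had a probe and 1 was measured against total brain, Nkx6-1, a homeodomain factor of the pancreas and the ventral neural tube, with a log2 difference of -1.28 and an adjusted p of 0.211.

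Genes of the roof plate differed among themselves. Of 28 listed, 16 had a named probe, and in the subcommissural organ against total brain 9 were measured, 1 of them higher by at least 4-fold and 3 lower, where 8.62% of all measured genes were higher and 14.9% lower by that much. The median log2 difference was -1.47, beside -0.29 over all genes. Zic4, a zinc finger factor of the dorsal neural tube, was at 13.6 and 8.23 in the pineal gland, 111 in the subcommissural organ, 24.2 in the subfornical organ, 6.10 in the ependyma and 2.13 in total brain. The subcommissural organ had the highest value, 52.1-fold above total brain, and the ependyma, where Msx1 was high, was below both pineal gland arrays. The pineal gland rose against total brain (log2 difference 2.31, adjusted p = 0.00856 in limma's test) and was 10.5-fold lower than the subcommissural organ (log2 difference -3.40, adjusted p = 3.06e-05). Bmp7, a secreted signal of a kind that switches on Msx genes in embryos, was at 0.963 in the subcommissural organ and 7.53 in total brain, at least 7.17-fold lower. Bmp4, another such signal, was at 0.814 in the subcommissural organ and 5.28 in total brain, at least 5.02-fold lower. In the pineal gland against total brain 6 roof plate genes were measured, and Zic4 rose while Rspo1, a Wnt co-activator, fell (log2 difference -2.03, adjusted p = 0.0242), beside 7.67% of all measured genes that rose and 16.1% that fell. Lmx1a, a homeodomain factor that defines the roof plate, reached the lower limit in the subcommissural organ alone, at 2.21. The pineal gland was at 0.248 and 0.0432, at least 2.10-fold lower than the subcommissural organ (log2 difference -3.56, adjusted p = 1.08e-05 in limma's test). Both pineal gland values were under the lower limit, and the second was raised to 0.142 before log2 was taken. The size of that log2 difference thus rests on unmeasured levels.

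The differences from total brain were recomputed with other scalings, floors, filters and probe rules. Those of Pax4 lay between 7.28 and 7.90 over the alternatives, those of Otx2 between 2.86 and 3.75, those of Mitf between 2.85 and 3.77 and those of Neurod1 between 2.98 and 4.28, so all 4 genes stayed more than 4-fold higher in the pineal gland.

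**Figure D4:**
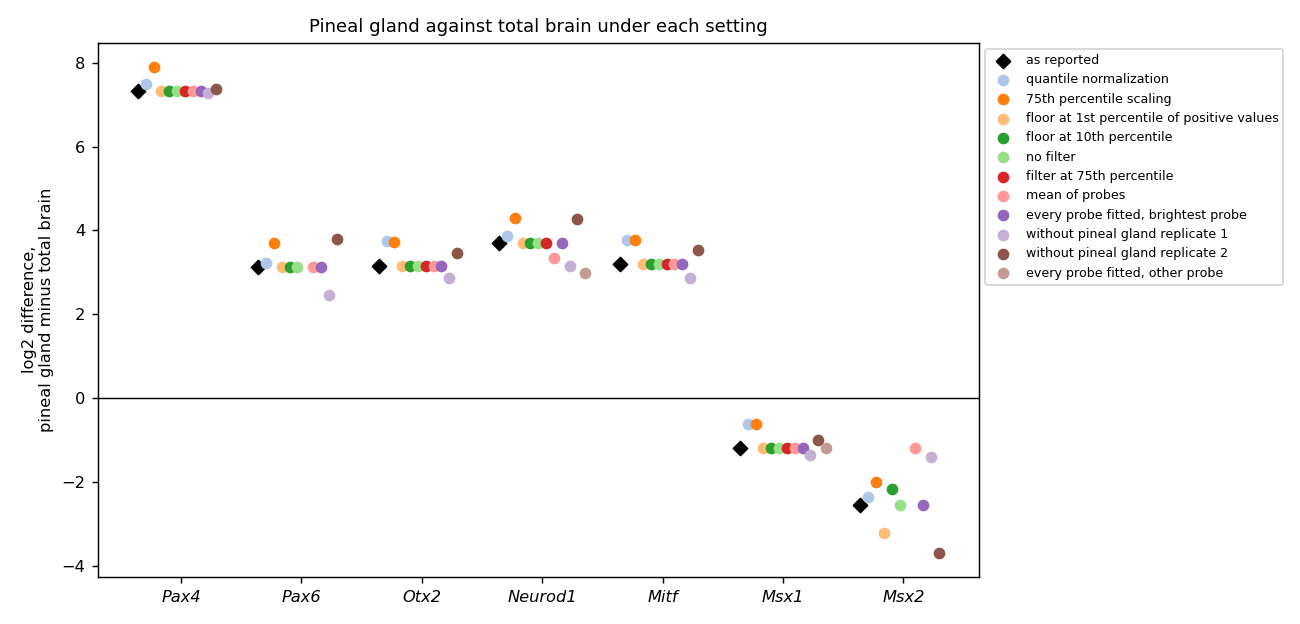
Log2 difference of each gene between the pineal gland and total brain under the reported processing and each alternative, with 1 mark per setting. Settings in which a gene was not measured are left out, among them the other probe of Msx2. Every member keeps its side of 0 in the settings shown, Pax4 stays between 7.28 and 7.90, and Msx2 is the most variable, at -3.69 to -1.20.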

How the data were processed

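The authors deposited a table of processed intensities, which read as linear values. The method of background correction and scaling is not given in the sources used here, and the array medians show a common centre. The labels' protocols give laser microdissection, in vitro transcription, biotin labelling and the Cy5 channel. The code -9999 was read as a missing value, which left 34963 of 35129 probes complete over the 6 arrays. Probes were named by the platform annotation, with 16865 probes of 1 symbol, 165 of several and 18099 not listed, and 16836 identifiers were found in the RefSeq gene table, which updated 1 symbol. The pooled 5th percentile, 0.142, was set as a floor, log2 was taken, and each gene was represented by its brightest probe by mean log2; probes were also fitted singly. Folds are 2 to the power of the difference in mean log2.

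The pineal gland was tested against each other tissue with limma 3.58.1 in R 4.3.3 (lmFit and eBayes over all 6 arrays with a mean per tissue, two-sided, Benjamini-Hochberg adjusted p under 0.05 over all measured genes, checked on simulated data). This assumes that the single arrays vary as the pineal gland pair does. The simulated arrays were all drawn with the same spread, so that check could not test the assumption. In the other 5 comparisons 4-fold differences were counted without a test. Precision is limited by the number of arrays. The alternatives were quantile normalization, scaling to the 75th percentile, other floors and filters, the mean of a gene's probes, every probe fitted singly and each pineal gland array left out. All probes of the members are named; each gene list is named by its 3 measured genes of largest difference against total brain (in the subcommissural organ for the roof plate list), with further names chosen after their values were seen, and each member by its 3 genes of nearest profile. The members and lists were chosen with earlier results of these data known. Promoter windows were searched in Python 3.11.15 on both strands.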

Additional observations from a re-analysis of the deposited data

How the results depend on the processing

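No difference of a member between the pineal gland and another tissue changed sign under the alternatives in which it was measured. The other probe of Msx2 was left out where it was not measured. Its log2 differences there were 0.15 against total brain, 0.43 against the ependyma and 0.33 against the subcommissural organ, opposite to the brighter probe. Between single arrays, Msx2 in the subfornical organ against the ependyma was -0.55 as reported, 0.70 with the mean of its probes and 1.94 on its other probe, and Mitf in the ependyma against total brain was -0.29 as reported, 0.14 after quantile normalization and 0.17 with 75th percentile scaling. Both stayed under 4-fold. The settings were quantile normalization, scaling to the 75th percentile, floors at the 1st and 10th percentiles, no filter on low values, a filter at the 75th percentile (6.04), the mean of a gene's probes, single probes and leaving out either pineal gland array. Pax4 passed limma's test in all 4 pineal gland comparisons under every tested setting. Without the filter limma called 1 member (Pax4) against the subfornical organ in place of 6, and the adjusted p of Mitf, Neurod1, Pax6 and Otx2 there was 0.0634, 0.0574, 0.0729 and 0.140, over ranges of 0.000105 to 0.0634, 4.81e-06 to 0.0574, 0.000116 to 0.0729 and 0.00912 to 0.140. With the filter at the 75th percentile 1 member in place of 2 was at least 4-fold different in the ependyma against total brain, because Pax4 was no longer measured. With 75th percentile scaling the same comparison gave 3 members, adding Pax6 at 2.44. In the subfornical organ against the ependyma, quantile normalization and 75th percentile scaling each gave 2 members in place of 1, adding Pax6 at -2.14 and -2.11. The cause of the other shifts was not tested. Msx2 against total brain passed in 2 of 7 tested alternatives, with adjusted p from 0.000202 to 0.227. Leaving out 1 pineal gland array gave no test, and Pax6 against total brain then lay between 2.46 and 3.80.

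Over all genes, quantile normalization gave 1247, 1178, 1360 and 1078 calls against total brain, ependyma, subcommissural organ and subfornical organ, and no filter gave 991, 724, 725 and 622, in place of 2160, 1810, 1838 and 1866. The share of these calls that was higher in the pineal gland than in total brain was 32.2% as reported, 47.5% after quantile normalization and 55.0% with 75th percentile scaling, and the all-gene median was -0.45, 0.03 and 0.17. With the filter at the 75th percentile, 4-fold differences numbered 1411, 866 and 877 in the subcommissural organ, subfornical organ and ependyma against total brain, and 567 and 620 in both organs against the ependyma, in place of 2140, 1542, 1522, 1134 and 1212, since fewer genes were measured. No paired analysis was possible because the pineal gland alone had more than 1 array.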
